A study of Mus musculus with 15 samples.

Results

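Chromatin accessibility was examined at 8 genes that mouse bile duct cells use to secrete fluid or that liver cells use to move bile acids: Cftr, Slc4a2, Aqp1, Sctr, Slc10a2, Gpbar1, Abcc3 and Abcc4. A region of the accessibility table was assigned to a gene when its midpoint lay in the annotated body, or else when that gene was the nearest within 50 kb. In this way 80 of 93215 nuclear regions belonged to the 8 genes, of 16712 genes with a region. Of the 80, 57 lay in a gene body and 23 beside one, and their length ran from 230 to 5994 bp with a median of 844.5 bp. Abcc4 held 30 regions, Cftr 17, Sctr 11, Abcc3 8, Slc10a2 7, Aqp1 5, and Slc4a2 and Gpbar1 1 each.

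The data are 15 libraries of ATAC-seq, in which a transposase cuts and tags open chromatin, from cells sorted from mouse liver without culture, in 5 groups of 3. Mice given DDC (diethoxycarbonyl-dihydrocollidine, a compound that injures bile ducts) provided reprogrammed hepatocytes, biliary cells and hepatocytes. Mice without DDC provided biliary cells and hepatocytes. How reprogrammed cells were defined and which markers the sort used is not stated in the labels, nor are strain, age or length of treatment. Whether the 3 replicates of a group are 3 animals is not stated either, so p-values speak only of library-to-library spread, which may be technical.

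Cholangiocytes, the epithelial cells of bile ducts, alter bile as it passes. Secretin binds its receptor Sctr and raises cyclic AMP, the chloride channel Cftr opens, the exchanger Slc4a2 trades the chloride for bicarbonate, and water follows through channels such as Aqp1. Slc10a2 takes bile acids back up from the duct lumen, and Gpbar1 is a membrane receptor for bile acids. Abcc3 and Abcc4 are ATP-driven pumps that export conjugated anions and bile acids toward the blood, and both are known for higher expression in cholestasis. Accessibility is not expression, and none of the values below measures RNA or protein.

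The promoters of 3 of the genes are shown because they stand for the different behaviour described below: Cftr, whose start differed most between the groups; Slc10a2, whose start was open in all 5; and Abcc4, which has a main and an alternative annotated start. Each window runs 5′ to 3′ on the gene's strand, from 250 bases before to 50 after the start, in RefSeq's annotation of GRCm38.p6 (the mm10 build of the data). Capitals mark motif matches.
Cftr, chr6:18170437-18170736, plus strand: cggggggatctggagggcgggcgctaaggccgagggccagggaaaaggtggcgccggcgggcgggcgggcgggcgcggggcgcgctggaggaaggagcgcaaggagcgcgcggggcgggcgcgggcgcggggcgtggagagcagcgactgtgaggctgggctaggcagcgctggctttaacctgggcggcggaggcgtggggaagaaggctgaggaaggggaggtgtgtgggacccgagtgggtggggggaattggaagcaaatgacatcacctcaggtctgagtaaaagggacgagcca
Slc10a2, chr8:5105238-5105537, minus strand: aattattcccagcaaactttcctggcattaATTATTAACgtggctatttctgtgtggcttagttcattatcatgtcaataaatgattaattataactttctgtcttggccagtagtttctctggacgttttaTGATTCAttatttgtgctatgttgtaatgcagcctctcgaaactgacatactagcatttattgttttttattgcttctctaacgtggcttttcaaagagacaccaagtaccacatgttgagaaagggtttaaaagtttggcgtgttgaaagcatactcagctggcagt
Abcc4 main start, chr14:118706170-118706469, minus strand: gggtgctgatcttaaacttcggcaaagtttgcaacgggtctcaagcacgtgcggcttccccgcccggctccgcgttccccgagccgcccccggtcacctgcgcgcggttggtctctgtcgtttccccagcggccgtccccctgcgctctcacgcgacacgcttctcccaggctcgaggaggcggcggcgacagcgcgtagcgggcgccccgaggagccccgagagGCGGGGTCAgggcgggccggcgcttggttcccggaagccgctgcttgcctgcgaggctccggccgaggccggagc
Abcc4 alternative start, chr14:118676882-118677181, minus strand: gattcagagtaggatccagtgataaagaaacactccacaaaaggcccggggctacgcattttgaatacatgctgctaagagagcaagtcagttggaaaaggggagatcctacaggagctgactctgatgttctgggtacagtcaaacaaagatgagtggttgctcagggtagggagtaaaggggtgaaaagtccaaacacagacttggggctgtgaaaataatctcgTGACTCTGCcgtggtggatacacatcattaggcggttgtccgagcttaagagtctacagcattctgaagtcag
The Cftr window was 71.3% G or C with 31 CG pairs and the Abcc4 main window 72.7% with 41, while the Slc10a2 window was 36.0% with 5 and the alternative Abcc4 window 47.3% with 6. The median of 32851 windows was 52.7%, with 7 CG pairs.

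Of the 8 genes, 6 had a window in the table, 8 windows in all, and 6 short motifs were searched in them on both strands. The HNF1 motif GTTAATNAT occurred in 0.801% of all 32851 windows and in 1 member window, that of Slc10a2, from base 31. The pattern searched for AP-1, TGANTCA with any base at N (7.81% of windows), also had a match in the Slc10a2 window, from base 133. The letters there are TGATTCA, with T at the free position. The antioxidant response element TGACNNNGC (12.4%) occurred in both Abcc4 windows, from base 226 in the main and base 228 in the alternative one. The nuclear receptor half-site AGGTCA (16.3%) occurred in 1 member window, one of Slc4a2, with 2 matches. The TEAD motif GGAATG (14.7%) occurred in the Gpbar1 window, from base 283. The cAMP response element TGACGTCA (1.79%) had no match in the 8 windows. The letters TGAC are shared by several of these motifs, so their matches can overlap, and a match describes the letters only.

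Values are given as nuclear RPM, scaled so that the nuclear regions of each library sum to 1000000, and a gene's value is the sum over its regions. Nuclear reads per library numbered 4756891 to 9829886 in reprogrammed cells, 5151190 to 10395918 in DDC biliary cells, 1191409 to 2342643 in DDC hepatocytes, 2439831 to 4389653 in untreated biliary cells and 201705 to 605309 in untreated hepatocytes. In untreated hepatocytes 1 read was therefore worth 1.65 to 4.96 nuclear RPM, against 0.0962 to 0.839 in the other groups, and mitochondrial reads made up 63.1 to 84.2% of reads in regions there, against 4.69 to 42.4% elsewhere. The biliary and hepatocyte marker genes followed the labels: summed over 10 biliary markers the ranges were 1024 to 1215 nuclear RPM in reprogrammed cells, 1591 to 1787 in DDC biliary cells, 473 to 591 in DDC hepatocytes, 1421 to 1554 in untreated biliary cells and 463 to 610 in untreated hepatocytes. Summed over the 9 of 10 hepatocyte markers with a region they were 575 to 1053, 372 to 748, 3027 to 4360, 502 to 1184 and 4547 to 6043 in the same order. Stellate cell and fibroblast markers summed to 318 to 388 in reprogrammed cells and 329 to 364 in DDC biliary cells, against 155 to 204 in DDC hepatocytes. In reprogrammed cells endothelial markers summed to 154 to 218, macrophage markers to 132 to 172 and lymphocyte markers to 12.0 to 21.6. The part of such cells in the member differences was not tested. In sorted pools of cells, a larger share of cells with an open region and a more open region per cell cannot be told apart.

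Differences were tested with limma on log2(nuclear RPM + 1) over all 79075 regions and all 16371 genes with a mean of 1 nuclear RPM or more, and a call means a Benjamini-Hochberg adjusted p under 0.05. Changes are log2 differences ± SE, first group over second, with n = 3 libraries per group. Of the 80 member regions 70 entered the test. The 10 left out averaged below 1 nuclear RPM, and 6 of them belonged to Cftr. Because untreated hepatocytes were so shallow, a call in the 2 comparisons that use them also required edgeR's quasi-likelihood test to pass in the same direction. Of the 70 regions 31 were called in at least 1 of the 6 comparisons and 39 in none. The same count was not made over all regions, so it does not show whether the members stand out.

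**Figure D1:**
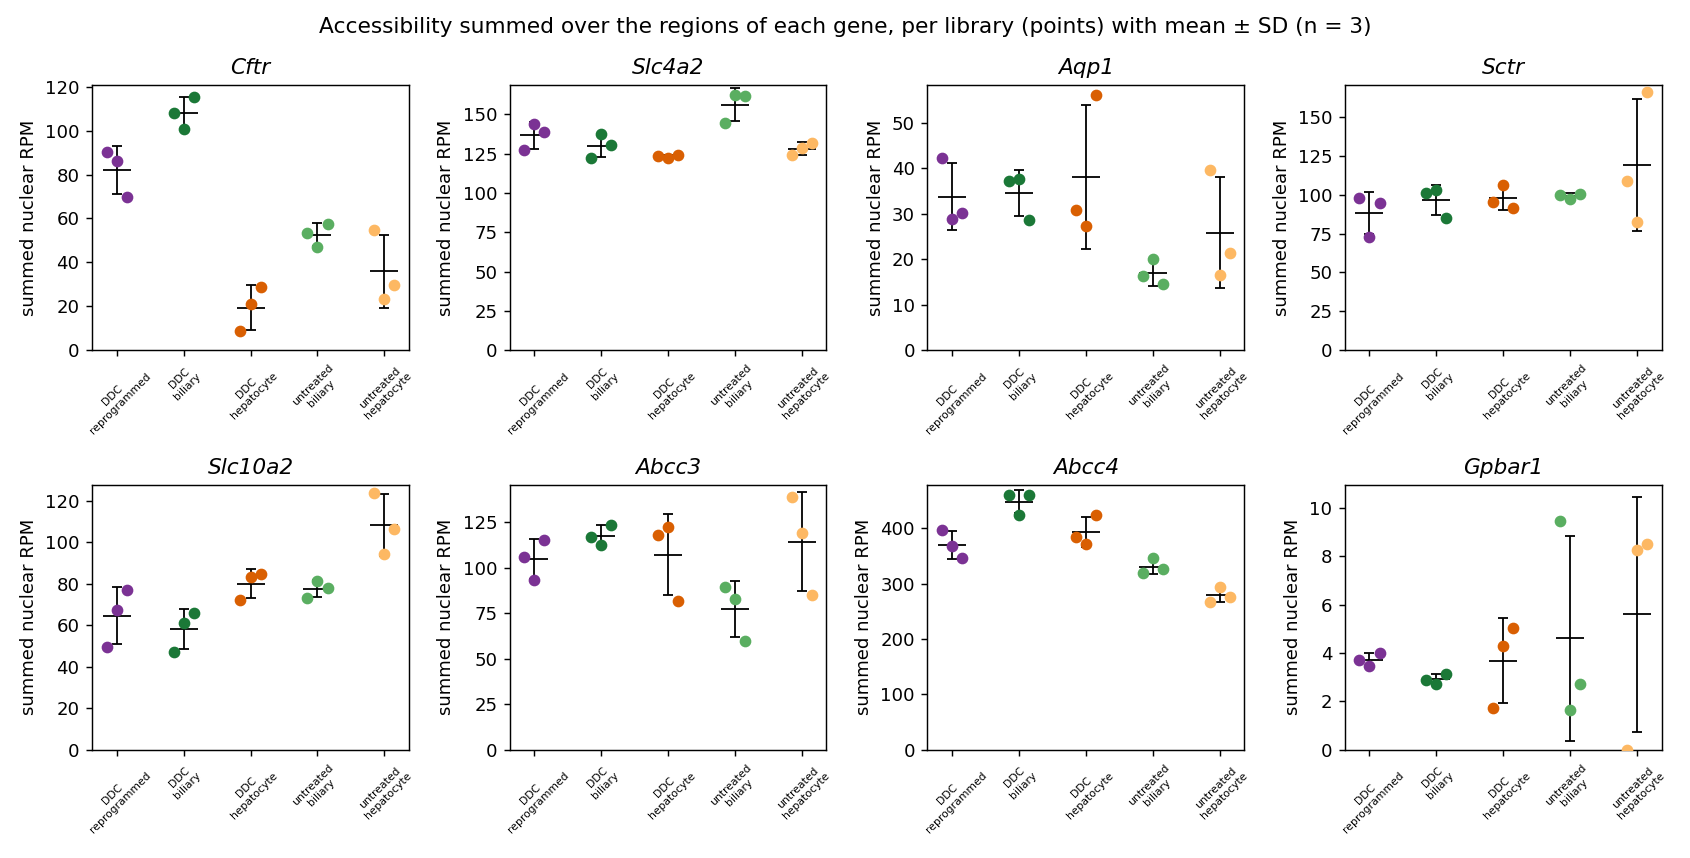
Accessibility of each gene in every library (points; y axis, nuclear RPM summed over the gene's regions, from 0) by group, with mean and SD over 3 libraries in black. Cftr separates DDC reprogrammed and DDC biliary cells (69.8 to 115.5) from DDC hepatocytes (8.54 to 28.5), while Slc4a2 lies between 122.5 and 162.7 in all 15 libraries.

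Cftr was the member that differed most between the groups. Its regions summed to 90.2, 86.4 and 69.8 nuclear RPM in the reprogrammed libraries, 108.3, 100.9 and 115.5 in DDC biliary cells and 8.54, 21.1 and 28.5 in DDC hepatocytes. Untreated biliary cells had 53.3, 47.1 and 57.4 and untreated hepatocytes 54.5, 23.1 and 29.8. All reprogrammed and DDC biliary libraries lay above all other libraries, and the ranges of untreated biliary cells and untreated hepatocytes overlapped, as did those of untreated and DDC hepatocytes. Cftr was 2.17 ± 0.35 higher in reprogrammed cells than in DDC hepatocytes (adjusted p = 0.0011) and 2.57 ± 0.35 higher in DDC biliary cells than in DDC hepatocytes (adjusted p = 0.000108), and both calls held without any single library. These comparisons share the DDC hepatocyte libraries. In DDC over untreated biliary cells the difference was 1.03 ± 0.35 with groups that did not overlap, which limma did not call (adjusted p = 0.13) and edgeR did (adjusted p = 0.000818). The reprogrammed libraries lay below the DDC biliary ones, by 0.40 ± 0.35, and this difference passed neither limma (adjusted p = 1) nor edgeR (adjusted p = 0.313).

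At the start of Cftr a region of 4501 bp (chr6:18169442-18173942), which covers the promoter window printed above, held 28.5, 36.6 and 28.2 nuclear RPM in reprogrammed cells, 32.6, 35.3 and 40.3 in DDC biliary cells and 1.71, 6.70 and 10.1 in DDC hepatocytes. The values were 26.8, 15.2 and 25.1 in untreated biliary cells and 14.9, 13.2 and 8.52 in untreated hepatocytes. This start region was higher by 2.38 ± 0.45 in reprogrammed cells (adjusted p = 0.00472) and by 2.59 ± 0.45 in DDC biliary cells (adjusted p = 0.000904), each over DDC hepatocytes. The DDC hepatocyte libraries overlapped with those of untreated hepatocytes and with no other group. Another strong region lay 100570 bp into the gene (chr6:18270844-18271670), with 25.5, 26.8 and 20.2 nuclear RPM in reprogrammed cells, 29.8, 21.2 and 28.0 in DDC biliary cells and 2.99, 2.87 and 8.39 in DDC hepatocytes. Without DDC, biliary cells had 2.27, 5.74 and 8.88 and hepatocytes 9.92, 0 and 0. The DDC and untreated biliary libraries did not overlap, and their difference of 2.17 ± 0.75 was not called by limma (adjusted p = 0.135) and was called by edgeR (adjusted p = 0.000148). The region was called in DDC biliary cells over DDC hepatocytes (2.37 ± 0.75, adjusted p = 0.0266), a call lost without any single library but DDC hepatocyte library 3 (adjusted p 0.0527 to 0.0928). It was singled out after its values were seen. A flanking region 11302 bp before the start (chr6:18159083-18159687) had 8.22, 5.09 and 5.26 nuclear RPM in reprogrammed cells against 0.854, 0.958 and 0 in DDC hepatocytes (2.20 ± 0.48, adjusted p = 0.00844; 2.01 and 0.0523 without reprogrammed library 1). In DDC biliary cells it had 9.33, 3.88 and 4.59 (2.09 ± 0.48 over DDC hepatocytes, adjusted p = 0.00449).

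In all, 2 of the 11 tested Cftr regions were higher in reprogrammed cells than in DDC hepatocytes, where 14.2% of all tested regions were called in either direction, and 6 of 11 in DDC biliary cells, where 28.6% were called. None of the 11 was lower. The third by p among the 6 lay 76113 bp into the gene (chr6:18245241-18248360, 2.04 ± 0.55, adjusted p = 0.0125), with 8.66, 6.21 and 6.84 nuclear RPM in DDC biliary cells against 0, 1.92 and 1.68 in DDC hepatocytes. Its call was lost without DDC biliary library 1 (1.92, adjusted p = 0.0572) or DDC hepatocyte library 1 (1.55, adjusted p = 0.0598). No Cftr region was called in DDC over untreated biliary cells, in DDC over untreated hepatocytes, or in untreated biliary cells over untreated hepatocytes.

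**Figure D2:**
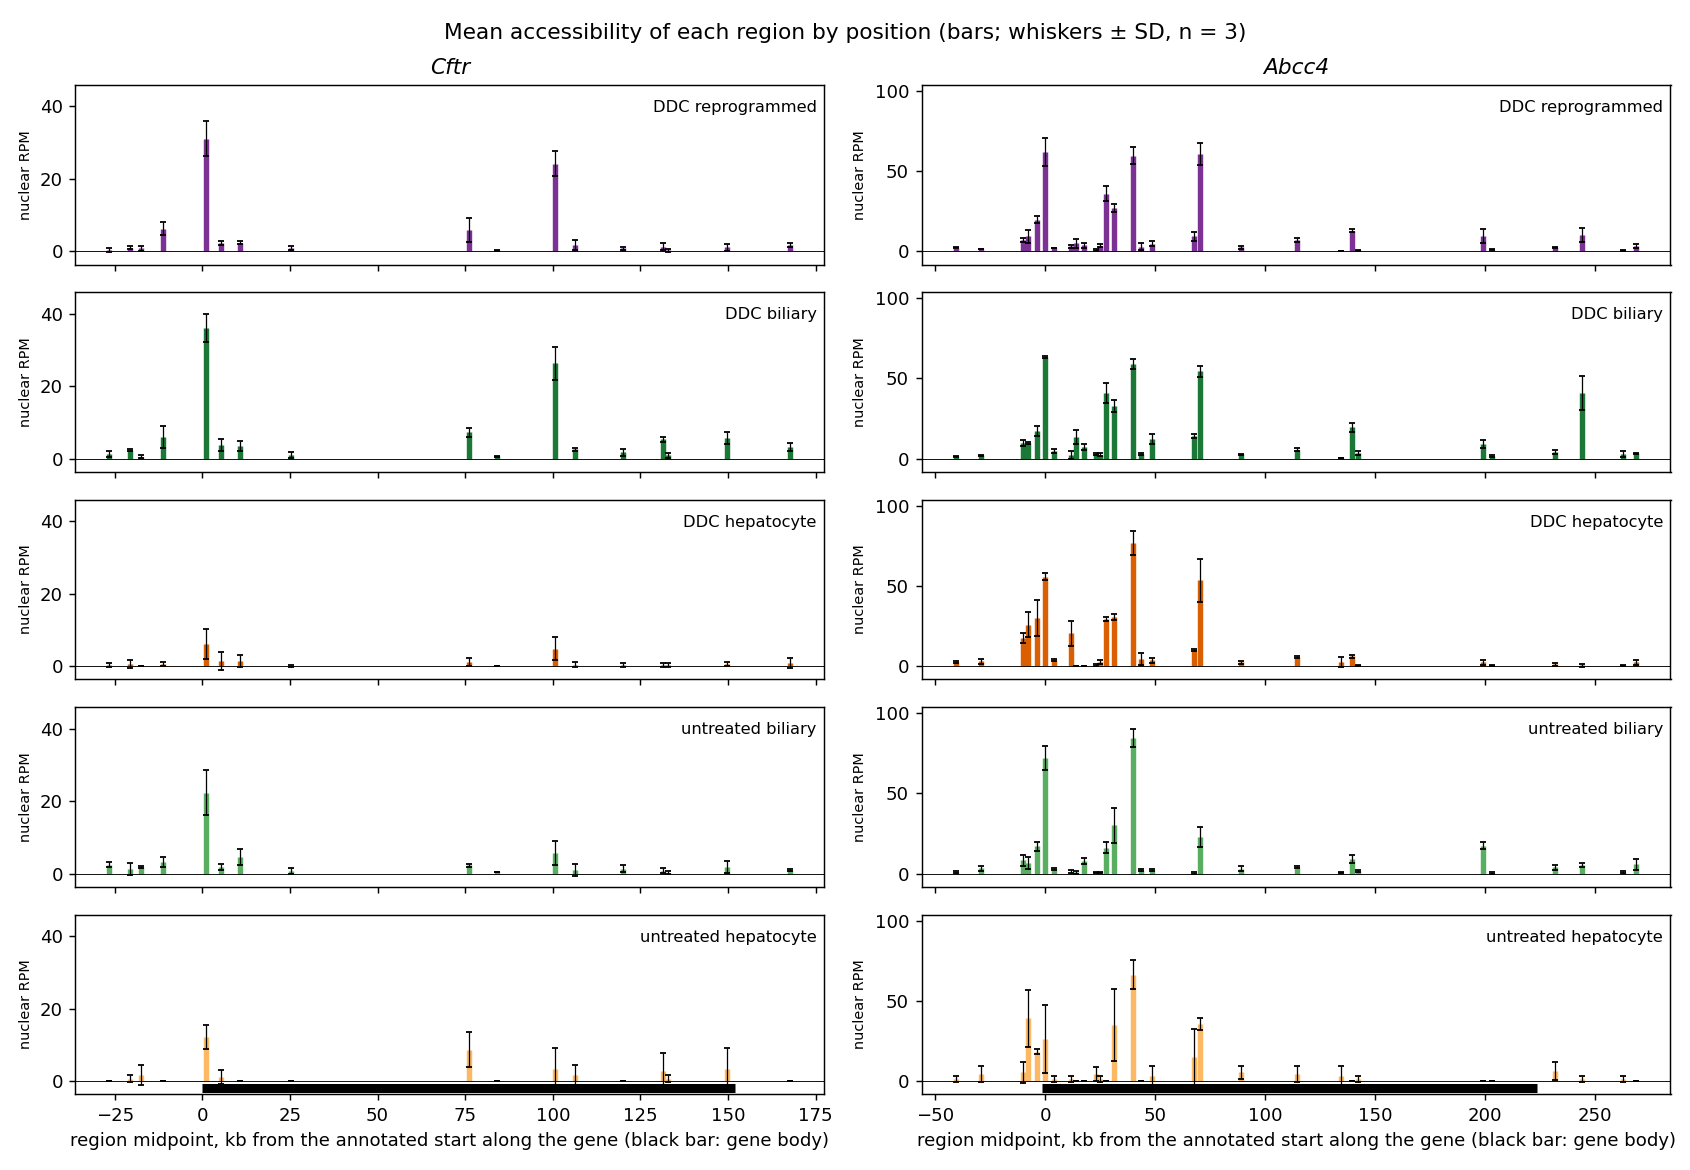
Mean nuclear RPM (y axis, bars; whiskers SD, n = 3) of the regions of Cftr (left) and Abcc4 (right) against the distance of each region's midpoint from the annotated start, in kb along the gene (x axis), one row per group, with the gene body as a black bar. The Cftr start and the region 100570 bp into the gene are tall in DDC reprogrammed (31.1 and 24.2) and DDC biliary cells (36.1 and 26.3) and low in DDC hepatocytes (6.16 and 4.75); several Abcc4 regions stand open in every group.

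Slc4a2, the exchanger, had a single region of 5994 bp over its start (chr5:24423132-24429125), which also touches the gene Cdk5. It held 127.6, 144.2 and 138.5 nuclear RPM in reprogrammed cells, 122.5, 137.2 and 130.3 in DDC biliary cells and 123.8, 122.6 and 124.2 in DDC hepatocytes. The untreated biliary libraries had 144.3, 162.7 and 161.7 and those of untreated hepatocytes 123.9, 128.9 and 132.0. The gene was open at a similar height in every library, and the 3 untreated biliary values were above all others. None of the 6 comparisons called it as a gene: the largest differences were 0.28 ± 0.11 in untreated biliary cells over untreated hepatocytes (adjusted p = 0.0604) and −0.26 ± 0.11 in DDC over untreated biliary cells (adjusted p = 0.245).

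Aqp1, the water channel, had 42.2, 28.9 and 30.3 nuclear RPM in reprogrammed cells, 37.1, 37.7 and 28.6 in DDC biliary cells and 30.7, 27.3 and 56.2 in DDC hepatocytes. Untreated biliary cells had 16.2, 20.1 and 14.6 and untreated hepatocytes 39.7, 16.5 and 21.3. The DDC biliary libraries lay above the untreated biliary ones without overlap. That difference, 0.98 ± 0.35, was not called by limma (adjusted p = 0.145) and was called by edgeR (adjusted p = 0.00658). Aqp1 is also strongly expressed in endothelium, and the summed endothelial markers (10 of 10 with regions) moved the same way, with 138 to 161 nuclear RPM in DDC biliary cells against 85.9 to 117 in untreated biliary cells; their part in the Aqp1 difference was not tested. A region 2266 bp past the body (chr6:55350416-55351227) had 3.40, 2.03 and 4.41 nuclear RPM in reprogrammed cells, 4.33, 1.94 and 2.54 in DDC biliary cells and 15.4, 8.62 and 26.0 in DDC hepatocytes. It was lower, at −2.09 ± 0.52 in DDC biliary cells (adjusted p = 0.00756) and at −1.96 ± 0.52 in reprogrammed cells (adjusted p = 0.0209), and the second of these was lost without reprogrammed library 1 (adjusted p = 0.0734) or 2 (adjusted p = 0.0936) or DDC hepatocyte library 3 (−1.59, adjusted p = 0.0778). A region 9626 bp past the body (chr6:55357197-55359165), the strongest of the gene, went the other way, with 20.1, 23.7 and 16.6 nuclear RPM in DDC biliary cells against 5.12, 3.83 and 8.39 in DDC hepatocytes (1.68 ± 0.50, adjusted p = 0.0199). This call was lost without library 1 or 2 of either group (adjusted p 0.0529 to 0.0787). The short region at the Aqp1 start was low in most libraries, at 0.916 to 2.30 nuclear RPM in reprogrammed cells, 2.14 to 3.13 in DDC biliary cells and 0.854 to 2.39 in DDC hepatocytes. It held 0.378 to 1.64 nuclear RPM in untreated biliary cells and 9.92, 0 and 0 in untreated hepatocytes, the last group resting on 2 reads.

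Sctr, the secretin receptor, had 97.7, 72.5 and 94.6 nuclear RPM in reprogrammed cells, 100.8, 103.1 and 85.2 in DDC biliary cells and 95.2, 106.3 and 91.5 in DDC hepatocytes. In untreated biliary cells the values were 100.1, 97.1 and 100.7, and in untreated hepatocytes 109.1, 82.6 and 166.1. Neighbouring groups overlapped throughout, and the gene sum was called in no comparison. Its regions, however, divided. The region at the lower-coordinate end of the body (chr1:120006656-120008692, which also touches Cfap221) had 9.75, 11.8 and 11.1 nuclear RPM in reprogrammed cells, 17.6, 11.5 and 13.5 in DDC biliary cells and 1.71, 1.44 and 1.68 in DDC hepatocytes. In biliary cells without DDC it had 9.82, 10.7 and 9.57, against 9.92, 3.30 and 0 in untreated hepatocytes. Over DDC hepatocytes it was 2.52 ± 0.62 higher in DDC biliary cells (adjusted p = 0.00741) and 2.19 ± 0.62 higher in reprogrammed cells (adjusted p = 0.0294). The second of these calls was lost without any one of the 6 libraries (adjusted p 0.0642 to 0.0952), and the difference turned to −0.39 when reads were thinned to the depth of the shallowest library. A region 30601 bp above the lower end of the body (chr1:120037088-120037872) had 4.82, 3.26 and 8.62 nuclear RPM in reprogrammed cells, 1.54, 3.88 and 1.27 in DDC biliary cells and 34.6, 35.0 and 20.1 in DDC hepatocytes. Without DDC, biliary cells had 7.56, 2.05 and 0.911 and hepatocytes 39.7, 16.5 and 38.3.

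That second Sctr region was high in both hepatocyte groups and low in the other 3 groups, with no overlap. It was lower, at −3.30 ± 0.58 in DDC biliary cells than in DDC hepatocytes (adjusted p = 0.000953) and at −3.04 ± 0.58 in untreated biliary cells than in untreated hepatocytes (adjusted p = 0.000923). In reprogrammed cells it was lower than in DDC hepatocytes, at −2.28 ± 0.58 (adjusted p = 0.0173), a call lost without library 1 or 2 of either group (adjusted p 0.0547 to 0.0804). A neighbour (chr1:120011261-120013526) had 9.45, 14.3 and 9.57 nuclear RPM in untreated biliary cells and no read among 1041881 in untreated hepatocytes, which allows up to 2.88 nuclear RPM, so it was at least 3.74-fold higher in untreated biliary cells (adjusted p = 5.04e-05). It was also higher in DDC biliary cells than in DDC hepatocytes (1.47 ± 0.45, adjusted p = 0.0224), which was lost without DDC biliary library 1 (1.31, adjusted p = 0.103) or 3 (1.44, adjusted p = 0.0755) or DDC hepatocyte library 2 (1.13, adjusted p = 0.0958). The strongest Sctr region by mean (chr1:120023675-120025964) had 38.2, 37.3 and 57.2 nuclear RPM in untreated biliary cells against 9.92, 9.91 and 25.5 in untreated hepatocytes (1.60 ± 0.38, adjusted p = 0.00436). Past the upper end, a region of 4047 bp (chr1:120063106-120067152) had 14.0, 11.1 and 8.20 nuclear RPM in untreated biliary cells against 39.7, 26.4 and 42.6 in untreated hepatocytes (−1.62 ± 0.37, adjusted p = 0.00342), and the sign turned to 0.17 on the deposited scaling.

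Slc10a2, the apical bile acid carrier of duct and ileum, had 49.7, 67.5 and 76.9 nuclear RPM in reprogrammed cells, 47.2, 60.96 and 66.0 in DDC biliary cells and 72.1, 83.3 and 84.8 in DDC hepatocytes. The untreated biliary libraries had 73.3, 81.6 and 78.1 and those of untreated hepatocytes 123.9, 94.2 and 106.4. Untreated hepatocytes were above every other library, and no comparison called the gene sum by the rule used here. In DDC biliary cells over DDC hepatocytes the difference was −0.47 ± 0.19, not called by limma (adjusted p = 0.0819) and called by edgeR (adjusted p = 0.041). Most of the sum came from the region over the start (chr8:5103780-5107268), which holds the promoter printed above. This region had 30.5, 48.4 and 41.4 nuclear RPM in reprogrammed cells, 31.6, 39.0 and 44.2 in DDC biliary cells and 41.4, 53.2 and 43.6 in DDC hepatocytes. Untreated biliary cells had 49.5, 66.4 and 63.6 and untreated hepatocytes 84.3, 43.0 and 51.1. The start region was called in no comparison. An intragenic region (chr8:5095273-5096336) separated the cell types, with 2.85, 6.0 and 9.04 nuclear RPM in reprogrammed cells, 3.94, 4.27 and 3.71 in DDC biliary cells and 14.9, 18.2 and 29.4 in DDC hepatocytes. In untreated biliary cells the values were 6.42, 4.10 and 2.28, and in untreated hepatocytes 9.92, 34.7 and 42.6. Every hepatocyte library lay above every other library. The region was lower, at −2.08 ± 0.55 in DDC biliary cells than in DDC hepatocytes (adjusted p = 0.0105) and at −2.37 ± 0.55 in untreated biliary cells than in untreated hepatocytes (adjusted p = 0.00363). In reprogrammed cells it was lower than in DDC hepatocytes, at −1.70 ± 0.55 (adjusted p = 0.0485), and leaving out any one of the 6 libraries ended this call (adjusted p 0.0508 to 0.208).

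Gpbar1, the bile acid receptor, had 1 region over its short gene (chr1:74277890-74279454), with 3.73, 3.46 and 3.99 nuclear RPM in reprogrammed cells, 2.89, 2.72 and 3.13 in DDC biliary cells and 1.71, 4.31 and 5.04 in DDC hepatocytes. Without DDC, biliary cells had 9.45, 1.64 and 2.73 and hepatocytes 0, 8.26 and 8.52. The last group rests on 7 reads in all. Groups that are neighbours in level overlapped, and no difference was detectable at this depth.

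Abcc3, 1 of the 2 efflux pumps, had 105.7, 93.0 and 115.0 nuclear RPM in reprogrammed cells, 116.7, 112.2 and 123.5 in DDC biliary cells and 117.8, 122.1 and 81.4 in DDC hepatocytes. The untreated biliary libraries had 89.2, 82.8 and 59.7 and those of untreated hepatocytes 138.8, 118.9 and 85.2. Untreated biliary cells were the lowest group. The gene was lower there than in untreated hepatocytes, with a difference of −0.55 ± 0.21 (adjusted p = 0.0444; edgeR adjusted p = 0.0366), although the groups overlapped. This call was lost without untreated biliary library 2 (−0.61, adjusted p = 0.0667) or 3 (−0.38, adjusted p = 0.198) or untreated hepatocyte library 1 (−0.40, adjusted p = 0.14) or 2 (−0.51, adjusted p = 0.0896), and on the deposited scaling, which counts mitochondrial reads and moves the median of all genes to 1.92, the sign turned to 1.31. In DDC over untreated biliary cells the difference was 0.62 ± 0.21 without overlap, not called by limma (adjusted p = 0.122) and called by edgeR (adjusted p = 0.0112). The strongest region, near the lower end of the body (chr11:94344772-94347631), had 63.5, 54.6 and 68.3 nuclear RPM in reprogrammed cells, 64.4, 60.8 and 70.6 in DDC biliary cells and 41.0, 39.7 and 31.9 in DDC hepatocytes. Untreated biliary cells had 41.2, 46.7 and 29.6 and untreated hepatocytes 0, 16.5 and 42.6. limma called it in no comparison, while edgeR called it higher in DDC biliary cells than in DDC hepatocytes (adjusted p = 0.00743), in reprogrammed cells than in DDC hepatocytes (adjusted p = 0.0329) and in DDC over untreated biliary cells (adjusted p = 0.0177), each without overlap.

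Regions within Abcc3 went in opposite directions. The one at chr11:94388938-94391409 had 8.99, 3.97 and 9.46 nuclear RPM in reprogrammed cells, 4.81, 7.96 and 8.99 in DDC biliary cells and 23.9, 35.0 and 17.6 in DDC hepatocytes. In untreated biliary cells the values were 11.3, 10.7 and 9.57, and in untreated hepatocytes 49.6, 67.7 and 17.0. Both hepatocyte groups were the highest here. It was lower, at −1.67 ± 0.49 in DDC biliary cells than in DDC hepatocytes (adjusted p = 0.0183; lost without library 1 of the biliary group, adjusted p = 0.0865, or library 2 of the hepatocytes, adjusted p = 0.0824) and at −1.79 ± 0.49 in untreated biliary cells than in untreated hepatocytes (adjusted p = 0.00995). In reprogrammed cells it was lower, at −1.67 ± 0.49 (adjusted p = 0.0324), lost without library 1 or 2 of either group (adjusted p 0.0716 to 0.141). The region at chr11:94392265-94393412 was lower in untreated biliary cells than in untreated hepatocytes (−2.36 ± 0.46, adjusted p = 0.0011), with 3.78, 1.64 and 3.64 nuclear RPM against 29.7, 13.2 and 17.0. The region at chr11:94361808-94362633 had 0.866, 2.33 and 1.66 nuclear RPM in DDC biliary cells against 20.5, 19.6 and 6.71 in DDC hepatocytes (−2.56 ± 0.79, adjusted p = 0.0236; lost without biliary library 1 or 3 or hepatocyte library 1 or 2, adjusted p 0.0638 to 0.0916). The region at chr11:94370234-94371419 went the other way, with 26.9, 16.1 and 23.5 nuclear RPM in DDC biliary cells against 8.54, 1.92 and 5.04 in DDC hepatocytes (2.04 ± 0.57, adjusted p = 0.0142; lost without biliary library 1, adjusted p = 0.0638, or 3, adjusted p = 0.052, or hepatocyte library 2, 1.58 and adjusted p = 0.0751).

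Abcc4, the other efflux pump, was higher in both DDC groups than in the matching untreated cells. It had 396.7, 367.5 and 346.0 nuclear RPM in reprogrammed cells, 459.8, 424.4 and 460.5 in DDC biliary cells and 384.6, 371.6 and 423.9 in DDC hepatocytes. Without DDC, biliary cells had 320.0, 346.3 and 325.8 and hepatocytes 267.7, 294.1 and 276.8. The untreated hepatocyte libraries were the lowest 3 of the 15, the untreated biliary ones came next, and met the reprogrammed cells at 346.3 against 346.0, and the DDC biliary ones were the highest. In DDC over untreated hepatocytes Abcc4 was higher by 0.49 ± 0.10, against a median of 0.21 over all genes (limma adjusted p = 0.00714, edgeR adjusted p = 0.0443). Its limma adjusted p was 0.00302 to 0.0241 when any single library was left out. The call was lost when only the 6 libraries compared were fitted (adjusted p = 0.273) or reads were thinned (adjusted p = 0.114). In DDC over untreated biliary cells it was higher by 0.44 ± 0.10 (adjusted p = 0.0284; edgeR adjusted p = 0.00883), and this call was lost without any one of the 6 libraries (0.41 to 0.48, adjusted p 0.0597 to 0.157). The difference between these 2 DDC effects was −0.05 ± 0.15 (adjusted p = 0.872), which does not show that they were equal. Endothelial and macrophage markers were also higher in both DDC groups, without overlap. The 10 endothelial markers summed to 216 to 224 nuclear RPM in DDC hepatocytes against 154 to 175 in untreated hepatocytes, and to 138 to 161 in DDC biliary cells against 85.9 to 117 in untreated biliary cells. The 5 of 10 macrophage markers with a region summed to 124 to 189 in DDC hepatocytes against 81.0 to 119 in untreated hepatocytes, and to 156 to 178 in DDC biliary cells against 118 to 131 in untreated biliary cells. The 9 of 10 stellate cell and fibroblast markers with a region summed to 155 to 204 in DDC hepatocytes against 158 to 193 in untreated hepatocytes, and to 329 to 364 in DDC biliary cells against 289 to 315 in untreated biliary cells. The 4 of 10 lymphocyte markers with a region summed to 17.5 to 37.8 in DDC hepatocytes against 47.9 to 79.3 in untreated hepatocytes, and to 16.7 to 20.5 in DDC biliary cells against 11.2 to 22.7 in untreated biliary cells. Their part in the Abcc4 differences was not tested.

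The clearest Abcc4 region was a stretch of 1185 bp inside the gene (chr14:118678174-118679358), whose near edge lies 1243 bp upstream of the alternative start shown above. It had 30.5, 39.1 and 38.3 nuclear RPM in reprogrammed cells, 38.0, 36.5 and 47.9 in DDC biliary cells and 30.7, 27.8 and 29.4 in DDC hepatocytes. Biliary cells without DDC had 12.5, 17.2 and 18.7, and untreated hepatocytes had no read in any of their 3 libraries. Every DDC library lay above every untreated one. With 0 of 1041881 reads the level could reach 2.88 nuclear RPM (3 reads over the group), so the region was at least 10.2-fold higher in DDC hepatocytes (adjusted p = 1.22e-06; edgeR adjusted p = 5.81e-05; adjusted p = 0.267 with only these 6 libraries fitted) and at least 5.75-fold higher in untreated biliary cells (adjusted p = 1.08e-06). It was the only 1 of the 70 member regions called in DDC over untreated hepatocytes, where 1.3% of all regions were called. In DDC over untreated biliary cells it was higher by 1.30 ± 0.32 (adjusted p = 0.0353), a call lost without any one of the 6 libraries (1.13 to 1.41, adjusted p 0.0803 to 0.207).

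**Figure D3:**
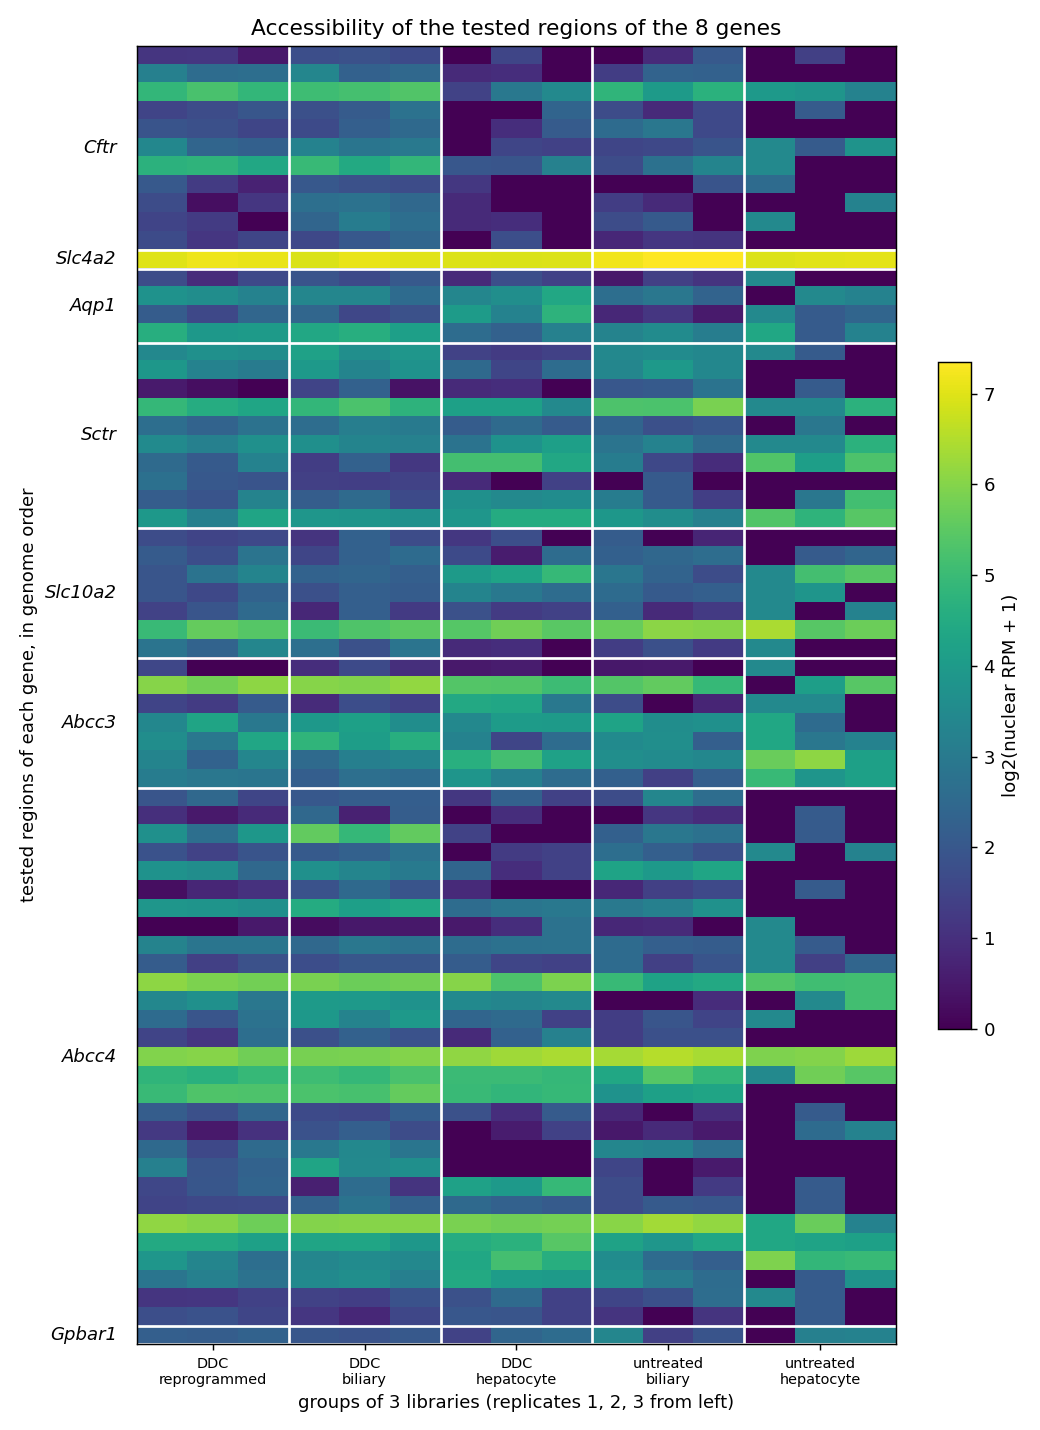
Accessibility of the 70 tested regions (rows, grouped by gene and in genome order) in the 15 libraries (columns, 3 per group), coloured by log2(nuclear RPM + 1). The single Slc4a2 row is bright throughout, several Cftr rows are dark in the hepatocyte columns, and many rows are at 0 in untreated hepatocytes, where 1 read is worth 1.65 to 4.96 nuclear RPM.

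Other Abcc4 regions distinguished DDC biliary cells. A region 20481 bp below the body (chr14:118461661-118462762) had 11.8, 5.49 and 13.9 nuclear RPM in reprogrammed cells, 47.1, 28.9 and 47.2 in DDC biliary cells and 1.71, 0 and 0 in DDC hepatocytes. The untreated biliary libraries had 3.78, 6.56 and 5.70 and those of untreated hepatocytes 0, 3.30 and 0. DDC biliary cells were the highest and reprogrammed cells stood between them and DDC hepatocytes, with no overlap. It was higher by 4.88 ± 0.61 in DDC biliary cells (adjusted p = 0.000178) and by 2.95 ± 0.61 in reprogrammed cells (adjusted p = 0.00716), each over DDC hepatocytes. Over untreated biliary cells it was higher in DDC biliary cells by 2.72 ± 0.61 (adjusted p = 0.0235), a call lost without any single library but DDC biliary library 2 (adjusted p 0.0659 to 0.132). Between reprogrammed and DDC biliary cells the difference was −1.94 ± 0.61, not called by limma (adjusted p = 0.501) and called by edgeR (adjusted p = 0.00126).

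An intragenic region (chr14:118691629-118692490) had 8.22, 2.85 and 3.99 nuclear RPM in reprogrammed cells, 18.5, 10.1 and 11.7 in DDC biliary cells and no read among 5622425 in DDC hepatocytes. Biliary cells without DDC had 1.89, 0 and 0.456 and untreated hepatocytes no read. It was at least 26.5-fold higher in DDC biliary cells (adjusted p = 0.00018) and at least 9.64-fold higher in reprogrammed cells (adjusted p = 0.00519) than the 0.534 nuclear RPM that a count of 0 allows in DDC hepatocytes. Over untreated biliary cells it was 3.12 ± 0.48 higher in DDC biliary cells (adjusted p = 0.00516; 2.88 and 0.0508 without DDC biliary library 1). Its neighbour (chr14:118687845-118689490) also had no read in either hepatocyte group, and had 4.71, 2.03 and 4.84 nuclear RPM in reprogrammed cells, 6.64, 9.71 and 6.25 in DDC biliary cells and 9.45, 8.61 and 5.47 in untreated biliary cells. This one was at least 13.3-fold higher in DDC biliary cells (adjusted p = 0.000277) and at least 6.80-fold higher in reprogrammed cells (adjusted p = 0.00519) than in DDC hepatocytes. The 2 neighbours thus differed in untreated biliary cells, where only the second was open.

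The other 2 regions completed the 5 calls of DDC over untreated biliary cells, where 3.47% of all regions were called. The region at chr14:118634941-118636321 had 57.7, 51.4 and 53.9 nuclear RPM in DDC biliary cells against 29.8, 18.0 and 20.5 in untreated biliary cells (1.25 ± 0.25, adjusted p = 0.0131; lost without DDC biliary library 1 or 3 or untreated biliary library 2 or 3, adjusted p 0.0635 to 0.0933). The region at chr14:118638165-118639078 had 15.1, 14.8 and 12.4 nuclear RPM in DDC biliary cells against 0, 0 and 0.911 in untreated biliary cells (3.60 ± 0.86, adjusted p = 0.0305; lost without any one of the 6 libraries, 3.44 to 3.91, adjusted p 0.0836 to 0.139). Reprogrammed cells had 9.54, 11.8 and 6.52 nuclear RPM there and DDC hepatocytes 10.2, 9.10 and 10.1, against 0, 9.91 and 34.1 in untreated hepatocytes. It was below 1 nuclear RPM in the 3 untreated biliary libraries. Untreated hepatocyte library 1 had no read, but 1 read was worth 4.96 nuclear RPM there, so its level is not known that closely. The region was lower in untreated biliary cells than in untreated hepatocytes (−2.55 ± 0.86, adjusted p = 0.0315; edgeR adjusted p = 4.02e-05), although these groups overlapped. A different region went the other way (chr14:118694221-118694807): 1.97, 2.95 and 4.20 nuclear RPM in reprogrammed cells and 0.577, 5.05 and 1.17 in DDC biliary cells, against 17.5, 14.8 and 29.4 in DDC hepatocytes. Biliary cells without DDC had 2.27, 0 and 1.37 and untreated hepatocytes 0, 3.30 and 0, so the DDC hepatocyte libraries lay above all others. Over untreated hepatocytes the difference was 3.67 ± 0.67, called by limma (adjusted p = 0.00249) and not by edgeR (adjusted p = 0.0819), and so not counted as a call. It was lower, at −2.92 ± 0.67 in DDC biliary cells (adjusted p = 0.00481) and at −2.40 ± 0.67 in reprogrammed cells (adjusted p = 0.0269), and the second of these calls was lost without any single library but reprogrammed library 3 (adjusted p 0.0549 to 0.115).

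Of the 29 tested Abcc4 regions, 6 were higher and 2 lower in untreated biliary cells than in untreated hepatocytes, where 17% of all regions were called. Those of smallest p after the region near the alternative start were chr14:118506363-118507306, with 18.1, 14.8 and 19.1 nuclear RPM in untreated biliary cells and no read in untreated hepatocytes (at least 6.16-fold higher, adjusted p = 3.02e-05), and chr14:118566012-118567006, with 6.80, 8.20 and 12.1 against no read (at least 3.34-fold higher, adjusted p = 3.2e-05). At the main start (chr14:118705153-118707154) untreated biliary cells had 65.0, 80.3 and 70.8 nuclear RPM against 19.8, 49.6 and 8.52 in untreated hepatocytes (1.76 ± 0.39, adjusted p = 0.00292). The main start was open in the DDC groups as well, with 69.3, 64.3 and 52.6 in reprogrammed cells, 63.0, 64.1 and 63.3 in DDC biliary cells and 58.1, 53.6 and 55.4 in DDC hepatocytes, and no other comparison called it by the rule used here. In DDC over untreated hepatocytes the main start differed by 1.39 ± 0.39 without overlap. That difference was called by limma (adjusted p = 0.0296) and not by edgeR (adjusted p = 0.21), and so not counted as a call. The strongest Abcc4 region by mean (chr14:118664352-118668308) had 60.8, 64.3 and 53.6 nuclear RPM in reprogrammed cells, 57.0, 57.3 and 62.9 in DDC biliary cells and 69.2, 77.6 and 83.9 in DDC hepatocytes. Untreated biliary cells had 80.9, 91.0 and 82.2 and untreated hepatocytes 59.5, 62.8 and 76.6. It was called in no comparison.

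The start regions were also compared per kb, which depends on the width of the region (454 bp at Aqp1, 4501 bp at Cftr) as well as on its reads. In reprogrammed cells their order differed from that of the gene sums only in that Slc10a2 came above Cftr. The 2 measures differ both in the regions used and in the scaling by length. In reprogrammed cells the start region held 31.0 ± 4.29 nuclear RPM per kb at Abcc4, 22.8 ± 1.41 at Slc4a2, 11.5 ± 2.59 at Slc10a2, 6.91 ± 1.06 at Cftr, 3.91 ± 1.65 at Aqp1 and 2.38 ± 0.17 at Gpbar1 (SD, n = 3). In DDC hepatocytes the Cftr start had 1.37 ± 0.94 per kb and the Abcc4 start 27.8 ± 1.11. The Cftr start thus remained below those of Abcc4, Slc4a2 and Slc10a2 in every group, including DDC biliary cells at 8.01 ± 0.86 per kb.

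Counted over the members, DDC biliary cells over DDC hepatocytes gave the most calls: 23 of 70 regions (16 higher, 7 lower), where 28.6% of all tested regions were called, with a member median of 0.51 against 0.15 over all regions. Reprogrammed cells over DDC hepatocytes gave 13 (7 higher, 6 lower), against 14.2% of all regions, with a member median of 0.28 against 0.17. The shares of the members, 32.9% and 18.6%, were near those of all regions. Leaving out DDC biliary library 1 or 3 or DDC hepatocyte library 2 reduced the 23 calls to 12, 15 and 13. Leaving out reprogrammed library 1 or 2 reduced the 13 calls to 4 and 5, and each of the DDC hepatocyte libraries to 7. How the share of all regions moved in these fits is not given. DDC over untreated biliary cells gave 5 regions, all higher and all of Abcc4 (7.14%, against 3.47% of all regions), and 0 to 3 when any one of its libraries was left out. Under edgeR 12 member regions (17.1%) were called there, along with 10450 of all 79075 regions. DDC over untreated hepatocytes gave 1 (1.43%, against 1.3%), and untreated biliary cells over untreated hepatocytes gave 15 (8 higher, 7 lower; 21.4%, against 17%). Reprogrammed over DDC biliary cells gave 0 calls by limma among the members and 0% of all regions, with 5 members and 4309 of all regions at an unadjusted p under 0.05, and edgeR called 1 member region (the Abcc4 region below the body) and 1732 of all regions.

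As gene sums, Cftr was the 1 member called in reprogrammed cells over DDC hepatocytes (14.4% of all genes were called) and in DDC biliary cells over DDC hepatocytes (24.5%). Abcc4 was the 1 member called in DDC over untreated biliary cells (3.24%) and in DDC over untreated hepatocytes (4.95%), and Abcc3 the 1 called in untreated biliary cells over untreated hepatocytes (28.6%). In reprogrammed over DDC biliary cells no member was called, against 0.0244% of all genes, with 1 member at an unadjusted p under 0.05 (Abcc4, −0.28 ± 0.10) and 0 called by edgeR.

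**Figure D4:**
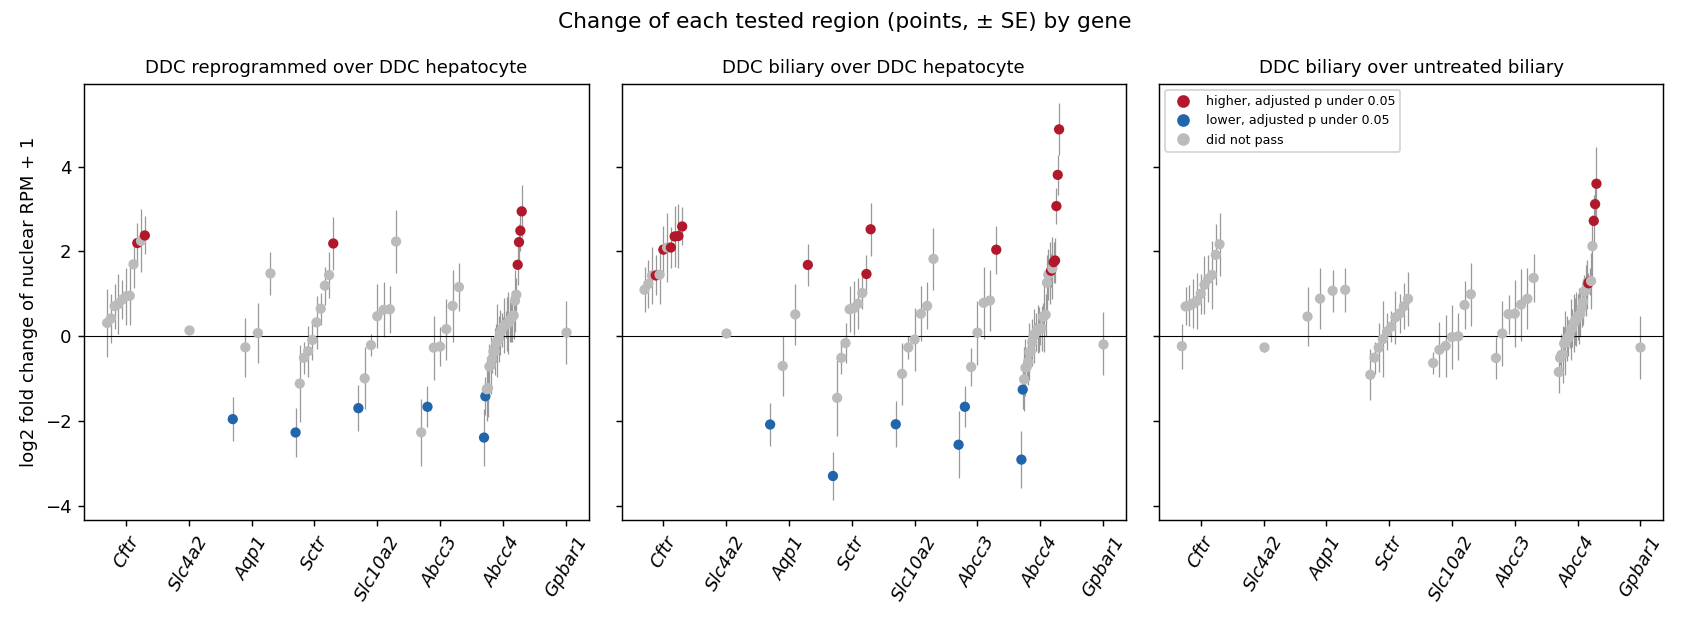
Log2 fold change (y axis, of nuclear RPM + 1; points ± SE) of each tested region by gene in 3 comparisons, red where higher and blue where lower at an adjusted p under 0.05, grey otherwise. Cftr regions lie above 0 in DDC reprogrammed and DDC biliary cells over DDC hepatocytes, with 2 and 6 of 11 called, and in DDC over untreated biliary cells the 5 called regions all belong to Abcc4.

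The other genes of these pathways were counted from 3 lists. Of 24 tested ductal secretion genes, 4 were higher and 5 lower in DDC biliary cells than in DDC hepatocytes, with a median of 0.42 against 0.07 over all genes, of which 24.5% were called. edgeR called 8 higher and 6 lower, and 6441 of all 16371 genes. Ano1, a calcium-activated chloride channel, averaged 126.6 nuclear RPM in DDC biliary cells and 29.4 in DDC hepatocytes (2.15 ± 0.30, adjusted p = 0.000133), while Kcnn2, a potassium channel, averaged 73.5 and 179.7 (−1.27 ± 0.14, adjusted p = 2.88e-05), and Aqp8, a water channel of hepatocytes, 27.7 and 105.1 (−1.90 ± 0.30, adjusted p = 0.000293). In reprogrammed cells over DDC hepatocytes limma called 2 higher and 3 lower (14.4% of all genes were called). There edgeR called 7 higher and 4 lower, and 4964 of all 16371 genes, so that the balance depended on the tool. By limma Ano1 was at 1.17 ± 0.30 (adjusted p = 0.018), Kcnn2 at −0.64 ± 0.14 (adjusted p = 0.00819) and Aqp8 at −1.47 ± 0.30 (adjusted p = 0.00417). limma called Kcnn2 alone in DDC over untreated biliary cells, as lower (−0.74 ± 0.14, adjusted p = 0.0124), where 3.24% of all genes were called. edgeR called 5 higher and 1 lower there, and 2594 of all 16371 genes. In reprogrammed over DDC biliary cells limma called none. edgeR called 1 higher and 5 lower there, and 495 of all 16371 genes. A single gene was called in DDC over untreated hepatocytes (4.95% of all genes called), as higher, Slc9a3r1, a scaffold of apical carriers (0.67 ± 0.18, adjusted p = 0.0266). In untreated biliary cells over untreated hepatocytes (28.6% of all genes called) 6 rose and 4 fell, led by Ano1 (1.92 ± 0.30, adjusted p = 0.000218), Kcnn2 (−0.87 ± 0.14, adjusted p = 0.000306) and Aqp8 (−1.66 ± 0.30, adjusted p = 0.000532).

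Of 17 tested bile salt and anion carriers, 1 rose and 9 fell in DDC biliary cells over DDC hepatocytes, with a median of −1.74 against 0.07 over all genes, of which 24.5% were called. Under edgeR 6441 of all 16371 genes were called, among them 2 of these carriers as higher and 12 as lower. They included Abcb4, the phospholipid exporter of the canalicular membrane (36.8 nuclear RPM in DDC biliary cells and 156.4 in DDC hepatocytes; −2.08 ± 0.23, adjusted p = 2.4e-05), Slco1b2, an uptake carrier of hepatocytes (−2.36 ± 0.34, adjusted p = 0.000142), and Slco1a4, another (−2.05 ± 0.30, adjusted p = 0.0002). In reprogrammed cells over DDC hepatocytes limma called 8 lower and none higher, with a median of −1.20 against 0.12 over all genes (14.4% called). edgeR called 13 lower and 2 higher there, and 4964 of all 16371 genes. The limma calls were led by Slco1b2 (−2.61 ± 0.34, adjusted p = 0.000271), Abcb4 (−1.19 ± 0.23, adjusted p = 0.00311) and Slco1a4 (−1.52 ± 0.30, adjusted p = 0.00409). In untreated biliary cells over untreated hepatocytes 2 rose and 10 fell (28.6% of all genes called), among them Abcb11, the bile salt export pump (−2.73 ± 0.30, adjusted p = 1.46e-05), and Slco1a4 (−1.91 ± 0.30, adjusted p = 0.000231), against Abcc5, a pump of the same family as Abcc3 and Abcc4, which rose (1.89 ± 0.29, adjusted p = 0.000182). Abcg2, an efflux pump of canaliculi, was the 1 that fell in DDC over untreated hepatocytes (−0.75 ± 0.16, adjusted p = 0.00806; 4.95% of all genes called). Abcb4 was the 1 that limma called lower in DDC over untreated biliary cells (−1.13 ± 0.23, adjusted p = 0.0156), where 3.24% of all genes were called. edgeR called 4 lower there, and 2594 of all 16371 genes. In reprogrammed over DDC biliary cells limma called none and edgeR 1, as higher, with 495 of all 16371 genes called by edgeR.

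Of the 14 regulators reported here, 9 fell in DDC biliary cells over DDC hepatocytes and no other was called, against 24.5% of all genes. Hnf4a, the hepatocyte factor, averaged 79.4 nuclear RPM in DDC biliary cells and 369.9 in DDC hepatocytes (−2.21 ± 0.33, adjusted p = 0.000208). Nr1i2, the xenobiotic receptor PXR (−1.88 ± 0.29, adjusted p = 0.000259), and Nfe2l2, the oxidative stress factor (−0.91 ± 0.15, adjusted p = 0.000459), fell as well. In reprogrammed cells over DDC hepatocytes 7 fell and no other was called (14.4% of all genes). Under edgeR 9 fell there, with 4964 of all 16371 genes called. By limma Nfe2l2 was at −0.80 ± 0.15 (adjusted p = 0.00273), Nr1i2 at −1.47 ± 0.29 (adjusted p = 0.00362) and Nr1i3, the xenobiotic receptor CAR, at −2.42 ± 0.64 (adjusted p = 0.0194). In untreated biliary cells over untreated hepatocytes 9 fell and no other was called (28.6% of all genes), led by Nr1i2 (−2.13 ± 0.29, adjusted p = 7.66e-05), Hnf4a (−2.35 ± 0.33, adjusted p = 9.79e-05) and Nr1h4, the bile acid receptor FXR (−0.65 ± 0.13, adjusted p = 0.00162). Creb1, a factor that answers cyclic AMP, fell in DDC over untreated biliary cells (−0.64 ± 0.16, adjusted p = 0.0373) as the 1 call there (3.24% of all genes). None was called by limma and edgeR together in DDC over untreated hepatocytes (4.95% of all genes) or by limma in reprogrammed over DDC biliary cells. In the latter edgeR called 1 higher, and 495 of all 16371 genes.

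By Pearson's r over the 15 libraries among 14730 genes, the genes most like Cftr were Adcy3, an adenylyl cyclase (0.952), and Kirrel3 (0.947). Those most like Abcc4 were Card14 (0.909) and Vwa1 (0.908), like Slc10a2 Ahr (0.941) and Lhfpl1 (0.930), and like Abcc3 Parva (0.891) and Car12 (0.880). For Slc4a2 they were Zfp866 (0.938) and Zfc3h1 (0.909), for Aqp1 Cacna1b (0.882) and Iglon5 (0.845), for Sctr Epb41l4b (0.858) and Ppp2r5c (0.829), and for Gpbar1 Kiz (0.909) and Astn1 (0.885). These values describe 15 libraries in 5 groups that also differ in depth. They are the highest among 14730 genes, a choice that favours high values, and how high r would be from that choice alone was not tested. The sums of Slc4a2, Aqp1, Sctr, Slc10a2 and Gpbar1 were called in no comparison, and Gpbar1 had 7 reads in untreated hepatocytes.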

How the data were processed

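The deposited file gives regions with 1 value per library, on mm10. The tools named in the submitters' processing notes are bedtools, Bowtie2, MACS2 and SAMtools, without settings. The values are labelled TPM by the authors, yet as deposited they are RPM, that is reads per 1000000 reads in regions: low values were whole multiples of 1 read (100%, tolerance 0.02), with no division by length. The plan had assumed the same test for either unit, and it was kept. For reprogrammed library 1 the step of 1 read lies near a power of 10, so the pattern is weaker evidence there.

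Each library was rescaled to 1000000 without the 2 mitochondrial regions, and regions were tied to the RefSeq bodies of protein-coding genes (80377 regions, 16712 of 21896 genes, 862 regions in several bodies). RefSeq's list of bodies has no strand; starts and strands came from the promoter windows, which cover 6 of the 8 genes. limma-trend ran on log2(nuclear RPM + 1) with all 15 libraries in 5 groups, and a fold on this scale understates the change of regions with few reads. edgeR ran on the recovered reads with TMM factors from gene sums. The rule that calls against untreated hepatocytes need both tools was added after seeing the data, since 1 read is large there. The tests were also run on simulated counts, with changes set only in features with many reads. That run does not cover regions with few reads, and its outcome is not given here. Floors are 3 reads over a group, and cover counting error only.

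The members and lists were chosen with earlier results of these data known. Named regions are, per gene, the highest by mean, the one over the start and up to 3 of smallest adjusted p per comparison; further ones (the Cftr region 100570 bp into the gene and 3 Abcc4 regions) were picked after their values were seen. For the lists, up to 3 called genes per comparison are named. From the list of regulators, 1 gene is not reported here and was left out of its counts. Within each group, no pair of libraries was a copy (2.34 to 8.2 chi-square per degree of freedom). Alternatives were the deposited scaling, a pseudocount of 5, no filter, edgeR, the compared groups only, reads thinned to 201705 per library, a replicate block, gene bodies only, and each library left out. Deviations of same-numbered libraries from their group means correlated from −0.14 to 0.20 over 30 pairs. Among the DDC groups every such r was positive, from 0.022 to 0.199, so a weak shared deviation there is possible. No label says that replicate numbers pair samples, so they were not taken as pairs in the main fit. Tools were R 4.3.3 with edgeR 4.0.16, limma 3.58.1 and the data.table package (1.17.8), and Python 3.11.15 with matplotlib 3.10.9, pandas 2.3.3 and numpy 2.4.6.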

Additional observations from a re-analysis of the deposited data

Results flagged for a closer look

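The effect of DDC on Cftr differed between the cell types in the test of that difference. DDC over untreated biliary cells gave 1.03 ± 0.35 and DDC over untreated hepatocytes gave −0.91 ± 0.35, and the biliary effect exceeded the hepatocyte effect by 1.94 ± 0.50 (limma adjusted p = 0.0489; edgeR adjusted p = 0.0244). Neither effect was called by limma on its own. The call was lost without any one DDC biliary library (1.89 to 1.99), without DDC hepatocyte library 1 (1.47, adjusted p = 0.0825) or 2 (2.07, adjusted p = 0.0746), and without any one untreated biliary library (1.86 to 2.0), and over all libraries left out in turn the adjusted p ran from 0.0118 to 0.132. It was also lost on the deposited scaling (0.59, adjusted p = 0.263), with only the compared groups (adjusted p = 0.102), with the replicate number as a block (adjusted p = 0.0618) and with thinned reads (1.99, adjusted p = 0.287). In the same test limma called 169 of all 16371 genes higher and 286 lower, with a median of −0.21 over all genes. Of the 70 member regions it called 2 higher and 1 lower. The hepatocyte effect on Cftr rests on 32 reads in all in untreated hepatocytes and 98 in DDC hepatocytes.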

How the results depend on the processing

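With reads thinned to 201705 per library, member region calls were 6 in untreated biliary cells over untreated hepatocytes, 1 in DDC over untreated hepatocytes, 0 in DDC over untreated biliary cells, 0 in reprogrammed cells over DDC hepatocytes and 4 in DDC biliary cells over DDC hepatocytes, and member genes 0, 0, 0, 1 and 1 in the same order. limma alone on nuclear RPM had given 21, 10, 5, 13 and 23 regions. The deposited scaling, which moves the median of all genes to 1.92 and 1.54 against untreated hepatocytes, gave 35, 30, 14, 20 and 33 regions, 1 region in reprogrammed over DDC biliary cells, and 7 genes, 6 genes and 0 genes in the first 3 comparisons. On it Abcc3 in untreated biliary cells over untreated hepatocytes turned to 1.31 (adjusted p = 0.000858) and the Sctr region at 120063106 to 0.17. Thinning turned the Sctr region at 120006656 in reprogrammed cells over DDC hepatocytes to −0.39. With only the compared groups fitted, the regions numbered 14, 0, 20, 24 and 36, with 6 in reprogrammed over DDC biliary cells, and the genes 0, 0, 5, 1 and 2. edgeR gave 16, 1, 12, 22 and 31 regions with 1 in reprogrammed over DDC biliary cells, and 1, 1, 4, 1 and 2 genes. Over all 79075 regions it called 16072, 1120, 10450, 23727 and 34113, with 1732 in reprogrammed over DDC biliary cells. Over all 16371 genes it called 4980, 838, 2594, 4964 and 6441. Both tools together gave 15 and 1 member regions in the first 2 comparisons. A pseudocount of 5 gave 6 regions in DDC over untreated hepatocytes, 8 in DDC over untreated biliary cells and 1 in reprogrammed over DDC biliary cells. With gene bodies only, genes numbered 3 in untreated biliary cells over untreated hepatocytes, 0 in DDC over untreated biliary cells, and 2 in each of the comparisons with DDC hepatocytes. Slc10a2 in DDC biliary cells over DDC hepatocytes then reached −1.61 (adjusted p = 0.00792). The region over its start was dropped there, since its midpoint lies 237 bp outside the body. Thinning, fewer groups and fewer regions act by their construction, and otherwise the cause was not tested. Apart from those of edgeR, the counts over all regions and genes under these settings are not given. The member counts here and below therefore do not show whether members moved more than other features.

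With each library left out in turn, region calls ran from 17 to 27, 5 to 19, 0 to 3, 4 to 10 and 12 to 21 in the same order, with 0 to 0 in reprogrammed over DDC biliary cells, and gene calls from 0 to 2, 1 to 2, 0 to 0, 1 to 1 and 1 to 1. With the replicate number as a block the regions numbered 23, 9, 4, 12 and 24, the genes 1 in each of these comparisons, and the Cftr difference between DDC effects had an adjusted p of 0.0618; same-numbered libraries correlated from −0.14 to 0.20 over 30 pairs.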
